A study of Homo sapiens with 6 samples.

Results

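The histone genes of OVCAR8 cells were examined, an ovarian cancer line that was either untreated with an EZH2-directed agent (Ctrl), treated with DZNep, or silenced for EZH2 by an induced hairpin (shEZH2). Members were the genes of the deposited matrix whose symbol begins with HIST1H, HIST2H, HIST3H, HIST4H, H2AF, H3F3 or H1F and whose value reached 5 in at least 2 of the 6 samples. Of 79 symbols with these prefixes among 14930 genes, 73 met the rule. They comprised 62 replication-dependent genes (symbols with HIST: 4 H1, 16 H2A, 17 H2B, 13 H3 and 12 H4) and 11 variant genes (H1F0 and H1FX; H2AFJ, H2AFV, H2AFX, H2AFY, H2AFY2 and H2AFZ; H3F3A, H3F3B and the pseudogene H3F3AP4).

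Each group held 2 samples, all collected at 72 h. Ctrl cells received DMSO, DZNep cells received 5 μM DZNep (an inhibitor of S-adenosylhomocysteine hydrolase that lowers EZH2, the methyltransferase of Polycomb repressive complex), and shEZH2 cells were OVCAR8 cells carrying a doxycycline-inducible hairpin against EZH2 in the Tet-pLKO-puro vector, given 1 μg/mL doxycycline. These doses follow the methods of the study, whereas the sample labels write the same figures in mM and mg/mL. No group of a doxycycline-treated control hairpin was analysed here, so doxycycline, the hairpin and the loss of EZH2 cannot be told apart. The labels do not say whether the samples of a group were separate cultures, and p-values then measure only the spread between these samples.

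Replication-dependent histone genes supply the bulk of new chromatin. They are transcribed in S phase from gene clusters, lack introns, and their mRNAs end in a conserved stem-loop in place of a poly(A) tail, where SLBP (stem-loop binding protein) governs processing and stability. Variant histones such as H2A.Z (H2AFZ), macroH2A (H2AFY, H2AFY2), H3.3 (H3F3A, H3F3B) and the linker histones H1.0 (H1F0) and H1.X (H1FX) are made throughout the cell cycle, mostly from polyadenylated mRNAs, and are placed into chromatin independently of DNA synthesis. The libraries were made after removal of ribosomal RNA, a procedure that keeps transcripts without a poly(A) tail.

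The stem-loop separated the members by sequence. In the GENCODE v44 transcripts it was found within 200 bases after the stop codon in 55 of 57 replication-dependent members with a matched transcript (96.5%; HIST1H3E and HIST1H4L had no match), in 1 of 10 coding variant members (H2AFX) and in 1 of 9211 other tested genes. All 57 matched replication-dependent transcripts had 1 exon. Shown here are the stem-loops of members on which the results below turn, with the stem and loop in capitals and the coordinates (GRCh38) given for the capitals. They are those of 3 genes that fell in both treated groups, of the H4 copies HIST2H4A and HIST2H4B, of HIST1H4J, an H4 gene that did not pass the test, and of the variant H2AFX.
HIST3H2BB, chr1:228458538-228458553, plus strand: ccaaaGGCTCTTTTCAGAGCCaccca
HIST1H2AK, chr6:27837885-27837900, minus strand: aaaaaGGTTCTTTTCAGAGCCaccta
HIST1H2BL, chr6:27807484-27807499, minus strand: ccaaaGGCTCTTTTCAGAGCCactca
HIST2H4A, chr1:149833032-149833047, plus strand: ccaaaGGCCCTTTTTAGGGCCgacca
HIST2H4B, chr1:149860769-149860784, minus strand: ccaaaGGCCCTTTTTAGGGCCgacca
HIST1H4J, chr6:27824459-27824474, plus strand: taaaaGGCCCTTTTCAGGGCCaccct
H2AFX, chr11:119094898-119094913, minus strand: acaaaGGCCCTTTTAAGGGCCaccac
The form carried by HIST3H2BB and HIST1H2BL was the commonest and occurred in 36 members of the classes H1, H2A, H2B and H3. The form of HIST1H4J occurred in 9 members, all of them H4.

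Promoters differed between the classes as well. In the 250 bases before the start site (RefSeq, GRCh38.p14, both strands), the octamer ATTTGCAT was found in 19 of 52 replication-dependent members with a sequence, against 2.03% of 27305 genes. The octamer was present in 10 of 15 H2A and 8 of 12 H2B promoters and in 0 of 10 H4 promoters. Windows of neighbouring genes on opposite strands can overlap, as for HIST2H2BE and HIST2H2AC, which lie 236 bases apart. HIST1H2AD and HIST1H3D share a window. The same site can therefore count for more than 1 gene. The letters CCAAT were found in 44 of the 52 against 37.0% of all genes, with 2 of 10 H4 promoters holding them, and TATAAA was found in 35 of the 52 against 13.0%. Shown are the 150 bases before the start of HIST2H2BE, which fell with DZNep, of HIST1H2BK, a gene with the same elements that did not pass the test, and of HIST3H2BB, which fell most; the pair with HIST1H2BK was chosen after the values were seen. Capitals mark CCAAT, ATTTGCAT and TATAAA on either strand.
HIST2H2BE, chr1:149886683-149886832, minus strand: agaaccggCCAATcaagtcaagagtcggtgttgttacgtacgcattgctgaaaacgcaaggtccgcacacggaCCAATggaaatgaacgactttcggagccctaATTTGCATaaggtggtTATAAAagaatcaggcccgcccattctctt
HIST1H2BK, chr6:27146859-27147008, minus strand: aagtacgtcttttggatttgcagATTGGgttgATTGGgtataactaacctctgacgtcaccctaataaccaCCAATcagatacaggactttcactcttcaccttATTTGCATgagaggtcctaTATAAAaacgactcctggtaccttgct
HIST3H2BB, chr1:228457953-228458102, plus strand: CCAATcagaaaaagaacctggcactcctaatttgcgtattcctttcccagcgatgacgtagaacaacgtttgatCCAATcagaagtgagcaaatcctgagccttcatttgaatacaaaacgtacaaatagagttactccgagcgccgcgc
The HIST2H2BE and HIST1H2BK windows each hold an octamer, a CCAAT and a TATAAA in the same order, whereas the HIST3H2BB window holds CCAAT only.

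The deposited values were whole numbers that summed to between 999956 and 1000068 in each sample. They were therefore values scaled to a common total and not read counts, and the depth behind them is unknown. It is not stated whether they were divided by gene length, so levels are mainly compared between samples of a gene. Where genes are summed or ranked by value, this describes these values and not relative transcript abundance. Values were rescaled with TMM factors (trimmed mean of M-values, between 0.918 and 1.11) and compared as log2(value + 1) with limma over the 9671 genes that reached 10 in 2 or more samples, a filter that all 73 members passed. Fold changes on this scale understate the change of low genes. A gene was called at a Benjamini-Hochberg adjusted p under 0.05 over all tested genes (two-sided), and the study's thresholds, an absolute log2 fold change above 1 with an unadjusted P under 0.05, served as a second rule. EZH2 itself had values of 36 and 42 in Ctrl, 26 and 26 with DZNep and 18 and 18 with shEZH2, with log2 fold changes of -0.63 and -1.12 (adjusted p = 0.026 and 0.016 from limma). The keratins KRT7, KRT8 and KRT18 were present in all samples and the ovarian lineage factor PAX8 had values of 10 to 19, while EPCAM had 5 to 12 and WT1 and CDH1 at most 8, and KRT19, MUC16 and MECOM had no row in the table used here. Of the leukocyte and endothelial markers, CD14 and VWF did not exceed 2 and of the fibroblast markers COL1A1 had values of 9 to 16 and LUM of at most 2, with no row for the other markers.

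The samples within a group were not alike in histone mRNA. In Ctrl, 62 of 62 replication-dependent members had the higher log2 value in replicate 1, with a median difference between the replicates of 0.57 (log2), and in DZNep 61 of 62 did, with a median of 0.64. In shEZH2 the order was the opposite, with 6 of 62 higher in replicate 1 and a median of -0.16. The medians for variant members were 0.08, 0.10 and -0.06, and those for all tested genes were 0.10, 0.08 and 0.01. Some noncoding RNAs that lack a poly(A) tail were looked at as well, and with DZNep they did not all change in the same direction. RN7SK, a repressor of transcription elongation chosen for this purpose after its values were seen, had values of 57071 and 42273 in Ctrl, 22594 and 15894 with DZNep and 36291 and 39968 with shEZH2, and its log2 fold change with DZNep was -1.45 (standard error 0.32, adjusted p = 0.0090 from limma). RMRP, the RNA of RNase MRP, had a DZNep change of -0.53 on the same scale (adjusted p = 0.11), whereas RN7SL1, the RNA of the signal recognition particle, and RPPH1, the RNA of RNase P, had 0.44 and 0.48 (adjusted p = 0.31 and 0.25 from limma), all 3 likewise chosen after their values were seen. The part of such non-polyadenylated RNA recovery in the histone results was not tested.

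Summed over the 62 replication-dependent genes, the deposited values were 20349 and 15096 in Ctrl, 11772 and 8877 with DZNep, and 13519 and 14655 with shEZH2. This was 2.03% and 1.51% of the sample total in Ctrl, 1.18% and 0.888% with DZNep and 1.35% and 1.47% with shEZH2, so that on this scale both DZNep samples lay below all others and both shEZH2 samples below Ctrl. After TMM scaling the sums were 22167 and 14716 in Ctrl, 12605 and 7968 with DZNep and 13209 and 14882 with shEZH2, so that shEZH2 overlapped Ctrl and DZNep still lay below all others. The 11 variant genes summed to 2378 and 2636 in Ctrl, 2628 and 3201 with DZNep and 2623 and 2586 with shEZH2, and these groups overlapped. After TMM scaling the variant sums were 2590 and 2570 in Ctrl, 2814 and 2873 with DZNep and 2563 and 2626 with shEZH2, and both DZNep samples lay above the others. On the deposited scale, the log2 ratio of the mean sums, DZNep to Ctrl, was -0.78 for replication-dependent and 0.22 for variant genes, and shEZH2 to Ctrl it was -0.33 and 0.06. In bulk RNA, fewer cells in S phase and less histone mRNA per S-phase cell cannot be told apart.

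DZNep lowered a large part of the replication-dependent genes. Of the 62, 34 fell, 1 rose and 27 did not pass the test, whereas 20.4% of all tested genes were called lower and 22.4% higher. At the study's thresholds 23 of the 62 were called lower and 1 higher, against 11.8% and 10.5% of all tested genes. The median log2 fold change was -0.82 against 0.02 over all tested genes. In 37 of the 62, both DZNep values lay below both Ctrl values, against 30.8% of all tested genes. More of the 62 were called lower with the replicate number as a block, as given in the last paragraph. Ctrl and DZNep replicates varied together, and leaving out 1 sample of either group unbalances this shared shift. The number called lower was 20 without Ctrl replicate 1 and 20 without DZNep replicate 2.

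Genes that fell were found in all 5 classes, but in H4 this was 1 gene. Over all tested genes 20.4% were called lower and 22.4% higher. Of the linker H1 genes 3 of 4 fell (median log2 fold change -1.18), of H2A 11 of 16 (-0.98), of H2B 11 of 17 (-0.82) and of H3 8 of 13 (-0.95). Of the H4 genes 1 of 12 fell and 1 rose, with a median of -0.18. Of their fold changes 7 of 12 were negative, against 4754 of 9671 tested genes. The summed deposited H4 values were 3538 and 2572 in Ctrl, 2620 and 1988 with DZNep and 2529 and 2719 with shEZH2, a log2 ratio of -0.41 for DZNep to Ctrl. Whether the classes differ was not tested.

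HIST3H2BB, an H2B gene of the small HIST3 cluster, changed most among the members. Its values were 380 and 322 in Ctrl, 38 and 32 with DZNep and 127 and 133 with shEZH2, so the 3 groups did not overlap and shEZH2 lay between the others. The log2 fold change with DZNep was -3.36 (standard error 0.22, adjusted p = 6.2e-05 from limma), the 34th lowest of 9671 tested genes. HIST3H2A, the H2A gene that shares its promoter region, had 150 and 141, 68 and 53, and 121 and 126, with a log2 fold change of -1.33 (standard error 0.22, adjusted p = 0.0027).

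Next came HIST1H2AK (H2A), which had 29 and 20 in Ctrl, 4 and 3 with DZNep and 9 and 11 with shEZH2. These are the lowest values of any member that fell, and the log2 fold change of -2.55 (standard error 0.29, adjusted p = 0.00054 from limma) is understated at such levels. HIST1H2BL (H2B) had 344 and 252 in Ctrl, 70 and 57 with DZNep and 133 and 154 with shEZH2, a log2 fold change of -2.27 (standard error 0.26, adjusted p = 0.00054). In both genes every treated sample was below every Ctrl sample.

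HIST2H4A, the H4 gene that fell, had 1160 and 849 in Ctrl, 271 and 210 with DZNep and 502 and 576 with shEZH2 (DZNep log2 fold change -2.12, standard error 0.27, adjusted p = 0.00082 from limma). HIST2H4B, the member that rose, had 10 and 7, 28 and 26, and 19 and 21 (1.51, standard error 0.25, adjusted p = 0.0027). Both genes carry the identical stem-loop shown above and identical promoter windows, and how the authors' counting divided reads between such copies is uncertain. With the copies summed, an alternative chosen after the data were seen, the pair had 1170 and 856 in Ctrl, 299 and 236 with DZNep and 521 and 597 with shEZH2, a log2 fold change of -1.98 (adjusted p = 0.0010 from limma), and no replication-dependent member was called higher. HIST2H3A and HIST2H3C, and HIST2H2AA3 and HIST2H2AA4, are such copies too. HIST2H3A alone had 460 and 161 in Ctrl, 116 and 244 with DZNep and 298 and 363 with shEZH2, while the sum with HIST2H3C had 872 and 615, 704 and 572, and 779 and 808.

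The other genes among the 8 lowest with DZNep were HIST1H3G (H3), HIST2H2BE and HIST2H2BF (H2B) and HIST1H2AI (H2A). HIST1H3G had 846 and 601 in Ctrl, 232 and 161 with DZNep and 388 and 434 with shEZH2 (DZNep log2 fold change -1.95, adjusted p = 0.0018 from limma). HIST2H2BE had 364 and 296, 101 and 84, and 181 and 192 (-1.89, adjusted p = 0.00067), HIST2H2BF had 448 and 347, 124 and 103, and 231 and 241 (-1.87, adjusted p = 0.00083), and HIST1H2AI had 672 and 502, 194 and 149, and 322 and 325 (-1.84, adjusted p = 0.0013). In all 4 the groups were separated, in the order DZNep, shEZH2, Ctrl. This order, with no overlap of the deposited values, was seen in 30 of the 62 replication-dependent genes. For how many of all tested genes this order holds was not determined, so nothing is read from the count.

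Values are also given for the gene with the highest mean deposited value over the 6 samples in each class. That mean takes in the treated samples and ranks down genes that fell, so nothing is read from this choice about how level and change relate. HIST1H1E (H1) had 1239 and 962 in Ctrl, 941 and 656 with DZNep and 999 and 1058 with shEZH2, and its DZNep change was -0.55 (log2, standard error 0.28, adjusted p = 0.15 from limma). HIST1H2BD had 631 and 447, 594 and 464, and 495 and 534 (-0.09, adjusted p = 0.81), and HIST1H4J had 649 and 497, 828 and 653, and 726 and 718 (0.30, adjusted p = 0.36). HIST2H3C (H3) had -0.05 (adjusted p = 0.91), with the uncertainty of its copy. HIST1H2AC (H2A) had 795 and 571, 412 and 323, and 585 and 630, and fell with DZNep (-0.96, standard error 0.27, adjusted p = 0.022).

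H2A and H2B genes are commonly arranged head to head around a shared promoter, and 8 such pairs with start sites 170 to 251 bases apart were found among the members. In all 8, both genes had a negative log2 fold change with DZNep. Of the H2A genes 15 of 16 were negative, and of the H2B genes 17 of 17, against 4754 of 9671 tested genes. Nothing about pairing is therefore read from this count. Some pairs were close, such as HIST2H2BE with HIST2H2AC (-1.89 and -1.71), HIST1H2BL with HIST1H2AI (-2.27 and -1.84) and HIST1H2AM with HIST1H2BO (-0.37 and -0.32, neither past the test). Others were not, with -3.36 for HIST3H2BB and -1.33 for HIST3H2A, and -2.55 for HIST1H2AK and -0.77 for HIST1H2BN. HIST1H2BK and HIST1H2AH, the pair with the smallest changes, had -0.03 and -0.21. The pairs given here were chosen after their values were seen.

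By position, the HIST1 genes on chromosome 6 fell into 3 stretches separated by more than 300 kb. The first, from HIST1H3A to HIST1H4H (stem-loop positions 26020932 to 26285131), held 24 matched members, of which 9 fell with DZNep (median log2 fold change -0.64). The second, from HIST1H2BJ to HIST1H2AH (27132321 to 27147546), held 4, of which 2 fell (-0.50). The third, from HIST1H2BL to HIST1H2BO (27807484 to 27893870), held 15, of which 10 fell (-1.04), while its H4 genes HIST1H4J and HIST1H4L had 0.30 and 0.39 and did not pass the test. In the HIST2 cluster on chromosome 1, 7 of 11 fell (-1.12) and 1 rose (the copy HIST2H4B), and in HIST3 both fell. Over all tested genes 20.4% were called lower and 22.4% higher. HIST1 genes without a matched position are left out of the 3 stretches. Of them HIST1H2BC, HIST1H2BE, HIST1H2BF and HIST1H2BI fell with DZNep and HIST1H2BG was not called. By symbol, 25 of 48 HIST1 genes fell, so the counts of the stretches are incomplete and are not compared.

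The changes were also described by promoter letters. Over all tested genes, 20.4% were called lower with DZNep. With DZNep, the median change was -0.93 (log2) for members with the octamer (12 of 19 fell) and -0.77 for those without it (17 of 33 fell). Among H2A and H2B genes alone the medians were -0.92 with it and -1.33 without it. Members with CCAAT had a median of -0.95 (28 of 44 fell) and the 8 without it, all H4, -0.25 (1 of 8 fell). HIST2H2BE and HIST1H2BK, whose windows are shown above, had -1.89 and -0.03. These are descriptions in which genes that share a site count separately, and no test was attached to them.

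A set of 9 replication-dependent genes known also to form polyadenylated transcripts was described separately. With DZNep 6 of the 9 fell and 0 rose, against 20.4% and 22.4% of all tested genes (median log2 fold change -0.96). At an unadjusted P under 0.05 from limma 6 were lower and 0 higher, against 2380 and 2564 of 9671 tested genes. Of the other 53, 28 fell and 1 rose (median -0.78). Which form was counted is not known from these values, and the part of either form in the decrease was not tested.

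Among the variants, DZNep raised H1F0, H1FX and H2AFY, lowered H2AFY2, and gave no call for the other 7, with a median log2 fold change of 0.03. The share called higher, 3 of 11, is close to the 22.4% of all tested genes, and 20.4% of these were called lower. H1F0, the linker histone of quiescent and differentiated cells, had 158 and 167 in Ctrl, 328 and 366 with DZNep and 238 and 223 with shEZH2 (DZNep log2 fold change 1.02, standard error 0.15, adjusted p = 0.0015 from limma). H1FX had 108 and 101, 240 and 198, and 203 and 190 (0.98, standard error 0.21, adjusted p = 0.0072). In both genes every treated sample exceeded every Ctrl sample. With DZNep, HIST1H1B, HIST1H1C and HIST1H1D of the HIST1 cluster fell instead, by 1.12, 1.24 and 1.35 on the log2 scale. HIST1H1E of that cluster had -0.55 and was not called (adjusted p = 0.15 from limma). Its shEZH2 values of 999 and 1058 overlapped its Ctrl values of 1239 and 962.

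The macroH2A genes went in opposite directions. H2AFY (macroH2A1) had 177 and 171 in Ctrl, 239 and 268 with DZNep and 189 and 189 with shEZH2 (DZNep log2 fold change 0.47, standard error 0.16, adjusted p = 0.044 from limma). H2AFY2 (macroH2A2) had 41 and 44, 27 and 24, and 37 and 38 (-0.79, standard error 0.20, adjusted p = 0.015). H2AFZ had 550 and 578, 681 and 924, and 568 and 545, which did not pass the test (0.42, standard error 0.15, adjusted p = 0.060).

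H3F3B, an H3.3 gene, had 906 and 1076 in Ctrl, 647 and 895 with DZNep and 915 and 937 with shEZH2 (-0.45, adjusted p = 0.054 from limma). The other H3.3 gene, H3F3A, had 152 and 195, 149 and 204, and 179 and 166 (-0.05, adjusted p = 0.81). H2AFX, whose mRNA carries the stem-loop, had 113 and 100, 157 and 119, and 143 and 148 (0.29, adjusted p = 0.36). H2AFJ, H2AFV and the pseudogene H3F3AP4 had log2 fold changes of -0.11, -0.16 and 0.03 and were not called (adjusted p = 0.64, 0.46 and 0.92).

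With shEZH2 fewer members passed the test. Of the 62 replication-dependent genes 3 fell, 1 rose and 58 did not pass, against 4.53% of all tested genes lower and 3.9% higher, a share of members near the background. At the study's thresholds the counts were again 3 and 1, against 3.03% and 2.27%. The median log2 fold change was -0.33, against -0.01 over all tested genes, and 55 of the 62 values were negative, against 4895 of 9671 tested genes. At an unadjusted P under 0.05 from limma, 17 were lower and 1 higher, against 1292 and 1440 of the 9671 tested genes.

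The genes that fell with shEZH2 were HIST3H2BB (log2 fold change -1.47, standard error 0.22, adjusted p = 0.014 from limma), HIST1H2AK (-1.24, standard error 0.29, adjusted p = 0.041) and HIST1H2BL (-1.08, standard error 0.26, adjusted p = 0.045). All 3 were also among those lower with DZNep, that is 100% of the shEZH2 list and 8.82% of the DZNep list, with the Ctrl samples shared by both comparisons. Of these, HIST1H2AK passed the filter only with its Ctrl values. HIST2H4B was the gene called higher (1.12, adjusted p = 0.038), and with the copies summed HIST2H4A and HIST2H4B together had -0.89 (adjusted p = 0.074). No replication-dependent gene passed the test when either shEZH2 sample was left out, and 12 were called lower without DZNep replicate 1, 11 without DZNep replicate 2, 7 without Ctrl replicate 2 and 1 without Ctrl replicate 1. With length and GC effects of the transcripts removed, 42 of the 62 were called lower, so the number of calls in this comparison rests on the setting. Medians by class were -0.58 for H1, -0.26 for H2A, -0.33 for H2B, -0.51 for H3 and -0.18 for H4.

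Of the 11 variants, H1FX rose with shEZH2 (log2 fold change 0.86, standard error 0.21, adjusted p = 0.046 from limma) and none was called lower. At an unadjusted P under 0.05 from limma 2 were higher and 1 lower, against 1440 and 1292 of 9671 tested genes. H1F0 had 0.45 (adjusted p = 0.095) and H2AFV, an H2A.Z gene with 124 and 152 in Ctrl, 111 and 151 with DZNep and 105 and 100 with shEZH2, had -0.47 (adjusted p = 0.10). H2AFX had 0.40 (adjusted p = 0.31), and the remaining variants lay between -0.22 and 0.07.

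Compared directly, shEZH2 lay above DZNep for 8 of 62 replication-dependent genes and below it for 0, against 4.88% of all tested genes higher and 4.42% lower. At the study's thresholds 9 were higher and 0 lower, against 3.42% and 2.1%. At an unadjusted P under 0.05 from limma 22 were higher and 0 lower, against 1300 and 1350 of the 9671 tested genes. The 8 were HIST3H2BB (log2 difference 1.89, standard error 0.22, adjusted p = 0.0045), HIST1H2AK, HIST1H2BL, HIST2H4A, HIST2H2BE, HIST2H2BF, HIST2H2AC and HIST3H2A, with log2 differences from 0.97 to 1.31 for the other 7. The median over the 62 was 0.42 against 0.00 over all tested genes. No variant of the 11 was called in this comparison by limma. At an unadjusted P under 0.05 from limma 1 was higher and 3 lower, against the same 1300 and 1350 of 9671 tested genes. Leaving out DZNep replicate 2 or either shEZH2 sample left 1 gene called higher, and leaving out Ctrl replicate 1, Ctrl replicate 2 or DZNep replicate 1 gave 15, 16 and 14.

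Genes that serve histone mRNA production were taken from a fixed list of 24, of which 23 were tested. With DZNep 4 rose and 5 fell (median log2 fold change -0.13), shares near those of all tested genes (22.4% higher and 20.4% lower). HINFP, an activator of H4 transcription, had 15 and 12 in Ctrl, 39 and 31 with DZNep and 24 and 24 with shEZH2 (DZNep log2 fold change 1.24, adjusted p = 0.0060 from limma). ZNF473, a protein of U7 snRNP-dependent 3' processing, CSTF2 and LSM1 rose as well (0.91, 0.70 and 0.56), and CASP8AP2 (FLASH), CPSF2, MIF4GD, NCBP1 and NCBP2 fell (-1.40, -0.89, -0.80, -0.70 and -0.64). SLBP had 76 and 76, 78 and 111, and 77 and 68 (0.22, adjusted p = 0.34), and NPAT, the coactivator of replication-dependent histone genes, had 18 and 41, 13 and 34, and 22 and 20 (-0.42, adjusted p = 0.43). CASP8AP2 and NPAT differed widely between the Ctrl samples, with CASP8AP2 at 19 and 43. With shEZH2 none of the 23 was called by limma. At an unadjusted P under 0.05 from limma 1 was higher and 2 lower, against 1440 and 1292 of 9671 tested genes.

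Of 30 tested histone chaperone genes, 4 rose and 7 fell with DZNep (median 0.00), against 22.4% of all tested genes higher and 20.4% lower, so that the share that fell is near the background. ASF1B, which hands new H3 and H4 to CAF-1 and HIRA, had 55 and 41 in Ctrl, 14 and 12 with DZNep and 25 and 24 with shEZH2 (-1.86, adjusted p = 0.0010 from limma). CHAF1A, the large subunit of CAF-1, had 30 and 28, 50 and 50, and 37 and 36 (0.70, adjusted p = 0.019), and MCM2, CABIN1 and HIRA rose by 1.31, 0.78 and 0.62. Next lowest to ASF1B were ANP32E (-1.26), the FACT subunit SUPT16H (-1.15), HJURP, the CENP-A chaperone (-1.02), and NAP1L1 (-0.87). With shEZH2, CABIN1 rose (1.00, adjusted p = 0.028 from limma), none was called lower and ASF1B had -0.98 (adjusted p = 0.052). At an unadjusted P under 0.05 from limma 3 were higher and 4 lower, against 1440 and 1292 of 9671 tested genes.

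Genes of an S-phase list, named for the phase in which these histones are made, changed in both directions with DZNep. Of 39 tested, 14 rose and 5 fell, against 22.4% of all tested genes higher and 20.4% lower, and the median was 0.28. MCM2 (269 and 216 in Ctrl, 668 and 592 with DZNep, 344 and 329 with shEZH2), FEN1 (111 and 111, 269 and 298, 133 and 138) and UNG (76 and 67, 155 and 165, 78 and 80) had the highest log2 fold changes (1.31, 1.27 and 1.08), followed by CDT1 (1.04) and GINS3 (1.02). RRM1, a subunit of ribonucleotide reductase, had 143 and 198, 41 and 75, and 84 and 94 (-1.65, adjusted p = 0.0012 from limma), and CCNE2, RRM2, PRIM1 and CCNA2 fell by 1.06, 1.02, 0.93 and 0.92 on the log2 scale. PCNA had 189 and 213, 153 and 222, and 157 and 157 (-0.19, adjusted p = 0.37). With shEZH2, 1 rose (CDT1, 0.93) and 4 fell (CCNE2 -1.15, RRM1 -0.96, RRM2 -0.83 and PRIM1 -0.80), against 3.9% and 4.53% of all tested genes, with a median of -0.16. The share of cells in S phase was not measured in these data, and nothing about it is read from this list.

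No member reached the value of 5 in exactly 2 samples. HIST1H2AK, whose values are given above, reached it in 4 samples and the other members in all 6. By the second-highest value, the measure that the rule reads, the members nearest its limit were HIST1H4A (17 and 14 in Ctrl, 11 and 7 with DZNep, 9 and 8 with shEZH2) and H3F3AP4 (13 and 14, 14 and 15, 11 and 14). Just outside it were HIST2H2BA (5 and 3, 1 and 0, 3 and 2) and H1FX-AS1, an antisense transcript of H1FX (4 and 4, 1 and 1, 3 and 2). The other 4 outside, HIST1H1T, HIST1H4I, HIST2H2BB and HIST2H3DP1, had at most 3 in any sample.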

How the data were processed

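OVCAR8 RNA-Seq was analysed in 6 samples, with groups and replicate numbers taken from the labels. Stranded libraries were made by the authors after depletion of ribosomal RNA. Reads were trimmed (fastp), placed on GRCh38 (STAR) and assigned to genes by RSEM, which divides reads that match several genes by likelihood. The deposited values are a score, brought by the authors to the same total in every sample and rounded to whole numbers. The unit is not named in the sources used here, the depth is unknown, and no counting interval is given.

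Values were TMM-scaled (trims of 30% and 5%, no weights), taken as log2(value + 1) and fitted with limma 3.58.1 in R 4.3.3 (trended prior, all 6 samples in 1 fit of group means). The script was tested on simulated data. Members, gene lists and the naming rule were chosen with earlier results of these data known. Text genes are EZH2, all variants, the called replication-dependent genes with the 8 largest and 8 smallest changes per comparison, the highest member of each class, up to 5 called genes per direction of each supply list with SLBP, NPAT, ASF1B, CHAF1A, PCNA and CCNE2, and the 2 genes on either side of the rule's limit. Any other gene was named after its values were seen. Older histone symbols were matched through RefSeq synonyms: 68 of 73 members had a GENCODE v44 gene and 61 a RefSeq promoter. HIST1H2BC, HIST1H2BE, HIST1H2BF, HIST1H2BG and HIST1H2BI could not be matched. Alternatives were other scalings, filters, pseudocounts, sample sets, a replicate block, length and GC correction, limma without trend, the shEZH2 samples averaged, each sample left out, and, added after the data were seen, HIST2 copies summed. Figures were drawn with matplotlib 3.10.9.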

Additional observations from a re-analysis of the deposited data

How the results depend on the processing

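No log2 fold change of EZH2 or of a histone member reversed past the threshold under any alternative. The medians of the replication-dependent genes kept their sign in all of them. The other named genes were not examined under the alternatives. With 2 samples a group and unknown depth, counts of calls depended on the setting more than the medians did. For DZNep, the number of replication-dependent genes called lower ran from 20 (without Ctrl replicate 1 or DZNep replicate 2) to 44 over the fits that omit 1 sample, in which the number higher was always 1. It was 3 with length and GC correction, alone or with the block, and 0 with the HIST2 copies summed. The variant median was 0.10 on the values as deposited, and the summed variant log2 ratio was 0.50 without H3F3B, the highest member, against 0.22. For shEZH2, the number lower was 8 on the values as deposited, 1 without a filter, 10 with only the groups compared, 42 with length and GC correction and 0 with the shEZH2 samples averaged (the log2 difference between them had a standard deviation over genes of 0.14, against 0.43 in Ctrl and 0.45 in DZNep), and ran from 0 to 12 with each sample left out. The number higher was 0 without a filter, with averaging and with copies summed, and 0 to 1 with each sample left out. For shEZH2 against DZNep, the number higher was 15 with only the groups compared, 32 with length and GC correction and 1 with averaging, and 1 to 16 with each sample left out; the number lower was 3 with length and GC correction, and the variant median ran from -0.18 to 0.0138 with each sample left out. The cause of these shifts was not tested.

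Replicate numbers were shared between groups, but deviations from the group means correlated at 0.79 between Ctrl and DZNep, -0.02 between Ctrl and shEZH2 and -0.04 between DZNep and shEZH2, so the numbers were not taken as pairs. With the replicate number as a block, 45 replication-dependent genes were called lower and 1 higher with DZNep, 24 lower with shEZH2 and 28 higher in shEZH2 against DZNep. With the block and length and GC correction, the counts were 49 lower and 3 higher with DZNep, 48 lower with shEZH2, and 37 higher and 5 lower in shEZH2 against DZNep. On the values as deposited, the share of higher among all called genes was 62.2% for DZNep (52.3% after TMM), 66% for shEZH2 (46.3%) and 43.5% for shEZH2 against DZNep (52.5%).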
